A study of Mus musculus with 6 samples.

Results

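The interleukin receptor genes were taken as all mouse genes whose annotated symbol begins with Il, a number and r, with the interferon receptor genes Ifngr1, Ifngr2, Ifnar1 and Ifnar2 and the shared chain Il6st. Il12rb2, Il18r1, Il18rap, Il1rl1, Il23r, Il2ra and Il7r were left out of the group by its definition. This gave 36 of the 18193 genes named on the array, each read from the probe set with the highest mean log2 intensity. Of the 36 genes, 23 had enough signal to be tested, among 11566 tested genes in all. One symbol in the group, Il1rn, encodes a secreted receptor antagonist and not a receptor.

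Expression was measured on 6 Affymetrix arrays, 1 array for each of Ezh2 KO Th2, Ezh2 KO Th1, Ezh2 KO unpolarized, wild type Th2, wild type Th1 and wild type unpolarized CD4 T cells. Naive spleen cells of C57BL/6 mice, taken as CD44 low and CD62L high, were activated with plate-bound antibody to TCRβ (10 µg/ml), CD28 antibody (1 µg/ml) and IL-2 (15 ng/ml). After 2 days the antibody stimulation was removed, and the cells were kept for 3 more days in the same cytokines, 5 days in all. Th2 cultures held 10 ng/ml IL-4 and an antibody to IFN-γ, Th1 cultures held 1 ng/ml IL-12 and an antibody to IL-4, and unpolarized cultures held both blocking antibodies. All 6 cultures therefore shared IL-2, and IFN-γ was left unblocked in the Th1 cultures. The labels call the mutant cells Ezh2 KO and give neither the allele, the Cre driver nor the age of the mice. They also do not tie an array to a mouse of its own. With 1 array per genotype and culture, p-values here rest on how unequal the genotype difference was across cultures. That spread mixes effects that differ by culture with array-to-array spread that may be technical.

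Cytokine receptors of T cells are assembled from chains, and a cell needs the signalling chains of a receptor to respond. Class I and class II receptors signal through Janus kinases bound to the chains and through STAT factors, whereas receptors of the IL-1 family signal through MyD88 and those of the IL-17 family through the adaptor Act1. Many chains are shared: gp130, encoded by Il6st, serves IL-6 and IL-27, and IL-12Rβ1, encoded by Il12rb1, serves IL-12 and IL-23. Ezh2 is a catalytic subunit of Polycomb repressive complex 2, which methylates lysine 27 of histone H3, and helper T cells are known to change their receptor chains as they take up the Th1 or Th2 fate.

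All arrays had been scaled to the same trimmed mean intensity of 500.003, and their medians lay between 61.3 and 69.1. Values under 64.4, the median of all values, are called low signal below, and genes that never reached this limit were left untested. The Ezh2 probe set read 4946, 4876 and 4971 in Ezh2 KO cultures (Th2, Th1, unpolarized), against 7677, 6553 and 7002 in the matching wild type cultures, a difference of -0.52 ± 0.11 (adjusted p = 0.0436), so much signal remained in the cells labelled Ezh2 KO. Where the probe set lies relative to the deleted part is not known from the labels. The 8 CD4 T cell markers, such as Cd3d, Cd3g and Lat, exceeded the low-signal limit on every array, with summed intensities of 59969 to 64759 in Ezh2 KO and 56604 to 60369 in wild type cultures, and 0 of them passed the genotype test. Single markers went both ways. Cd4 (-0.55 ± 0.32) and Cd5 (-0.51 ± 0.16) were lower in Ezh2 KO without overlap, as were 27.5% of all tested genes. Cd3e, Cd3g and Cd28 were higher without overlap, as were 20.1% of all tested genes. Of the 5 listed NK cell markers 4 had a named probe set: Nkg7 and Klrd1 were higher in Ezh2 KO (4.85 ± 1.37 and 4.84 ± 1.09 on the log2 scale), while Ncr1 and Tyrobp were low on all 6 arrays. In these bulk samples fewer cells of a type and less RNA per cell cannot be told apart.

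Between the genotypes, 4 receptor genes rose and 2 fell. The genes higher in Ezh2 KO were Il12rb1, the shared chain of the IL-12 and IL-23 receptors, at 4.21-fold, Ifngr1, the ligand-binding chain of the IFN-γ receptor, at 2.5-fold, Il1rl2, the IL-36 receptor, at 1.95-fold, and Il21r, the IL-21 receptor, at 1.59-fold. The lower genes were Ifngr2, the signalling partner of Ifngr1, at 3.05-fold, and Il6st, which encodes gp130, at 2.36-fold. The test was limma with culture as a block, over 3 pairs of arrays, with Benjamini-Hochberg adjustment across all 11566 genes and a threshold of 0.05. The 4 higher genes are 17.4% of the 23 tested receptor genes, where 8.37% of all tested genes were called higher. The 2 lower genes are 8.70%, where 8.05% of all tested genes were called lower, so that share is near the background. Over all genes, 51.0% of the calls were higher, and after median centring of the arrays this share was 67.7%. The median log2 difference of the 23 genes was 0.10, and that of all tested genes was -0.07.

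Of the 23 tested genes, 10 had a higher and 6 a lower value in Ezh2 KO in each of the 3 cultures, and 7 had mixed signs. The matching shares of all tested genes were not counted, so no trait of the receptor genes is read from these counts. All Ezh2 KO arrays lay above all wild type arrays for 7 genes, or 30.4% of those tested, against 20.1% of all tested genes. All Ezh2 KO arrays lay below all wild type arrays for 4 genes, or 17.4%, against 27.5% of all tested genes. Signal above the low limit was present in both genotypes for 21 of the 23 genes, and 18 exceeded it on all 6 arrays. Il1r2 passed the filter through the Ezh2 KO arrays alone and Il17rd through the wild type arrays alone. The 6 calls were lost when either the filter on low values or any 1 culture was left out, when 0 genes of the whole array passed. At an unadjusted p under 0.05, 6 receptor genes were higher (16.9% of all tested genes) and 4 lower (21.9%). Both a passed test and a 2-fold mean change were found for Il12rb1 and Ifngr1 among the higher (4.7% of all tested genes) and for Ifngr2 and Il6st among the lower (1.88%).

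Within single cultures 1 array is set against 1 array with no test. On the probe sets used, Il12rb1 was at least 2-fold higher and Ifngr2, Il6st and Il6ra at least 2-fold lower in Ezh2 KO each time. The second Ifngr2 probe set fell short of this in Th2 (125 in Ezh2 KO, 239.9 in wild type) and unpolarized cultures (98.2 and 190.1). The second Il6ra probe set fell short in Th1 (114 and 162) and unpolarized cultures (91.7 and 155). A dim Il6st probe set did so in unpolarized cultures (52.8 and 74.1). In Th2 cultures Ifngr1, Il1r2 and Il1rl2 were also 2-fold higher (9.61% of all tested genes were 2-fold higher and 5.97% lower). In Th1 cultures Il17rb alone joined Il12rb1 (7.24% higher and 4.43% lower). In unpolarized cultures Ifngr1, Il1r2 and Il1rl2 were 2-fold higher again, and Il3ra and Il17rd were 2-fold lower (7.53% higher and 5.79% lower). The differences of Il1r2 and Il17rd follow the filter, which each passed through 1 genotype alone. A second Il17rd probe set went the other way in unpolarized cultures, at 43.2 in Ezh2 KO and 10.5 in wild type. The Ifngr1 difference in Th1 cultures was 0.94 on the log2 scale, just short of 2-fold.

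**Figure D1:**
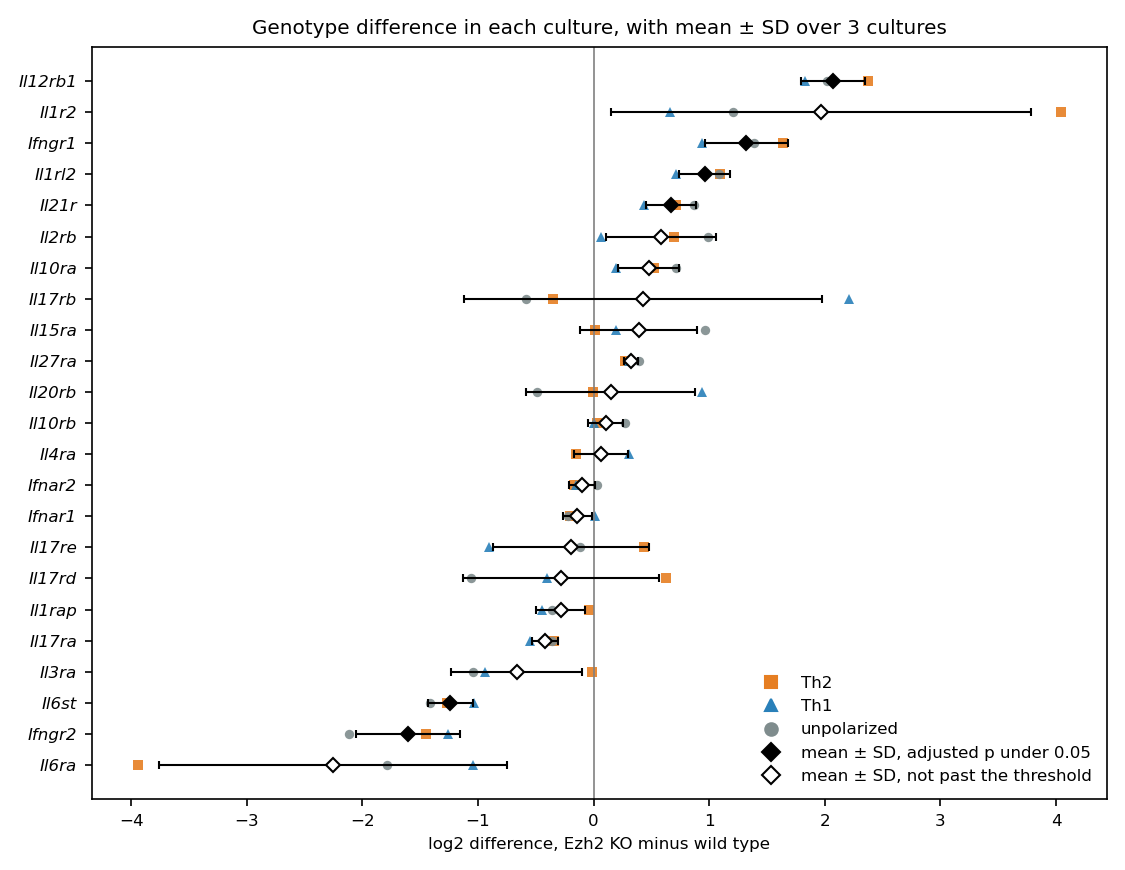
Log2 difference of Ezh2 KO minus wild type (x axis) for the 23 tested interleukin receptor genes (rows). Coloured symbols are the single cultures, and diamonds with bars are the mean ± SD over 3 cultures, filled where the limma adjusted p was under 0.05. Il12rb1, Ifngr1, Il1rl2 and Il21r stand to the right of 0 and Ifngr2 and Il6st to the left in all cultures, while Il1r2, Il17rb and Il6ra have the widest bars, with Th2 values of 4.04 for Il1r2 and -3.94 for Il6ra and a Th1 value of 2.21 for Il17rb.

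**Figure D2:**
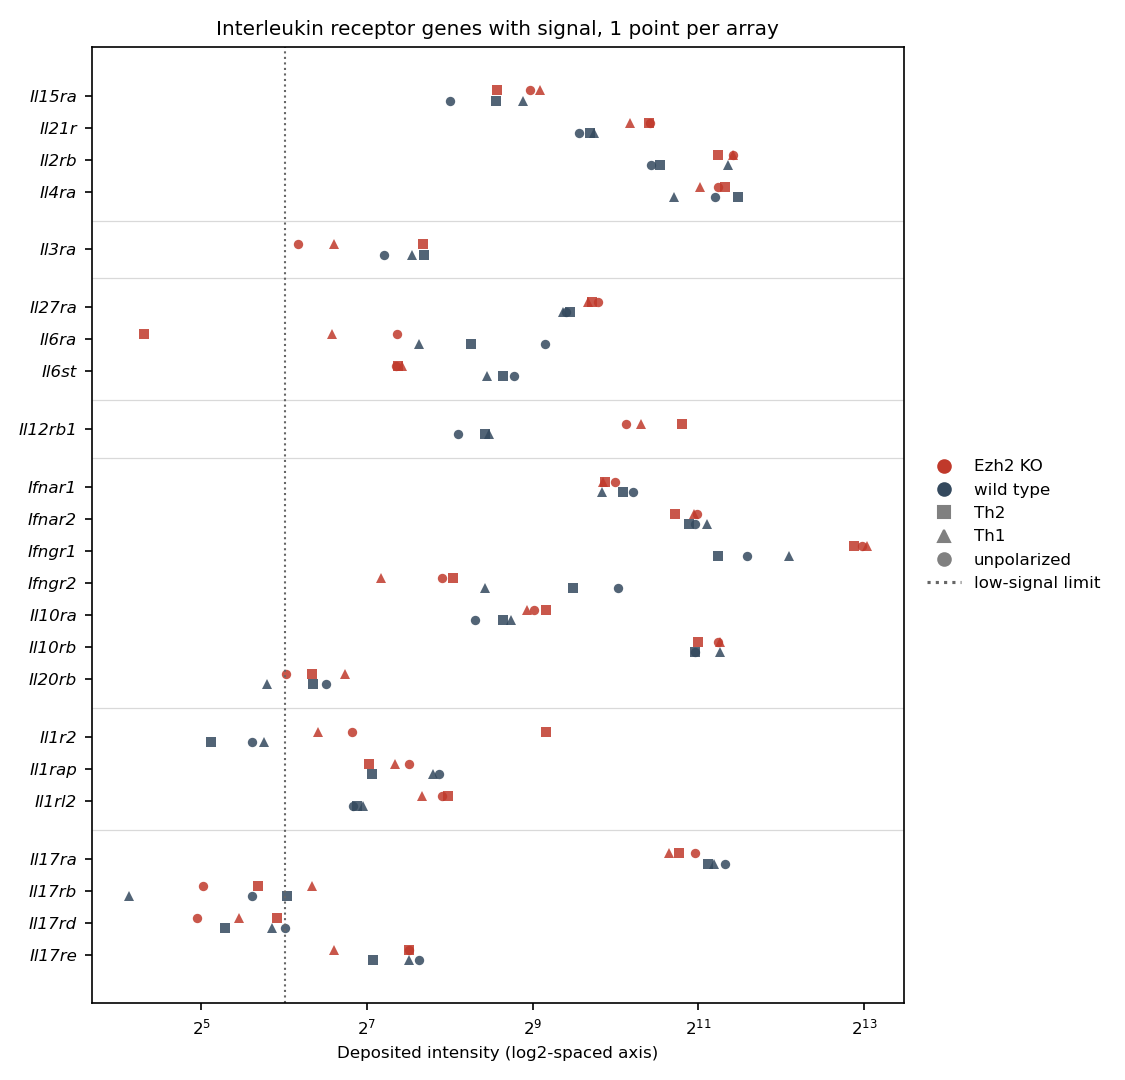
Deposited intensity on a log2-spaced axis (x axis) of the 23 tested genes (rows, grouped by receptor family), 1 point per array. Red points are Ezh2 KO and dark points wild type, the symbol gives the culture, and the dotted line is the low-signal limit of 64.4. The points of the genotypes do not overlap for Il12rb1, Ifngr1, Ifngr2, Il6st, Il6ra, Il1rl2, Il1r2, Il21r, Il27ra, Il10ra and Il17ra.

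The promoters of the changed genes are shown here because they differ in base composition. RefSeq windows of GRCm38.p6, from 250 bases before to 50 after a start site, were found for 29 of the 36 genes, 33 windows in all. Of the 6 genes past the threshold 5 had an entry, and Il12rb1 was not among them. The 250 bases before the start site are given 5′ to 3′ on the strand of the gene, in lower case with each CpG dinucleotide in capitals. All 5 lie on the plus strand, at chr16:91546809-91547058 for Ifngr2, chr13:112463820-112464069 for Il6st, chr10:19591699-19591948 for Ifngr1, chr7:125603179-125603428 for Il21r and chr1:40324339-40324588 for Il1rl2.
Ifngr2: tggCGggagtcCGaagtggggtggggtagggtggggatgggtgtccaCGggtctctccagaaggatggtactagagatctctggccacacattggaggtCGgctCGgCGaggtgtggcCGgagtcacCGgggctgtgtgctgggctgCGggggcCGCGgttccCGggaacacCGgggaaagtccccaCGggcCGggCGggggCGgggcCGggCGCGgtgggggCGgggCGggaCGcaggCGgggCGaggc
Il6st: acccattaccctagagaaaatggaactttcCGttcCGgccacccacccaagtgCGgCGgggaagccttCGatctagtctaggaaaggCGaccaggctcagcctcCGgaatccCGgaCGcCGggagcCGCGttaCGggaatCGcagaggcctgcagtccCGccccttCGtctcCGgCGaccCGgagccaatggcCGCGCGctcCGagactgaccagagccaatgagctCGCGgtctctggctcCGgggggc
Ifngr1: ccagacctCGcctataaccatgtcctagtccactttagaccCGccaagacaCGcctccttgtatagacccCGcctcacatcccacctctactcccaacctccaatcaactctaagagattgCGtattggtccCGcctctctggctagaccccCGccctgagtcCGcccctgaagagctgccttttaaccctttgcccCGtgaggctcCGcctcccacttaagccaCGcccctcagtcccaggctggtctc
Il21r: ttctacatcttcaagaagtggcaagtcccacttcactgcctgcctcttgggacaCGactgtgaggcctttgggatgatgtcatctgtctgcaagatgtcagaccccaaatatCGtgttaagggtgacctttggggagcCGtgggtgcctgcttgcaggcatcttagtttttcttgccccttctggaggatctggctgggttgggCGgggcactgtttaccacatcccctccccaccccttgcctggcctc
Il1rl2: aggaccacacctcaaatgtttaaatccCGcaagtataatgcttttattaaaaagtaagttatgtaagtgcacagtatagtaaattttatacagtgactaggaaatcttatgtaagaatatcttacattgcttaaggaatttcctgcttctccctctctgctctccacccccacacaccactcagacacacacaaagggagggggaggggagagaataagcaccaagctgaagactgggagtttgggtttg
The stretches of the 2 genes that fell held 25 (Ifngr2) and 26 (Il6st) CpG dinucleotides. Those of the genes that rose held 11 (Ifngr1), 4 (Il21r) and 1 (Il1rl2). Over all 32851 promoters of the table, the same stretch held a median of 6 (quartiles 2 and 16). In the full windows of 300 bases, the 18 windows of tested receptor genes held a median of 18.5 (quartiles 8.75 and 29.75). Ifngr2 held 31 and Il6st 33 there, and Il3ra (35), Il1rap (33) and Il17rb (32), which did not pass, were similar. Il17re (3) and Il20rb (1) held few and did not pass either. The 5 printed promoters are a description and no test was made on them.

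The 33 windows were also searched on both strands for 4 motifs, counting overlapping matches. TTCNNNGAA, the core of STAT binding elements, was in 4 windows (Ifnar1, Ifnar2, Il1r2 and Il31ra), and 8.30% of all promoters hold it. The motif of the interferon-stimulated response element was in 1 (Il1rap), with 3.44% of all promoters. AGATAA, bound by GATA factors, was in 6 (Il6ra, Il5ra, Il9r, Il13ra2, Il20rb and Il22ra1), with 11.2% of all promoters. AGGTGTGA, a T-box motif, was in 0, with 1.275% of all promoters. The 5 promoters printed above held none of these letters in the window, and a match or its absence says nothing of whether a factor binds.

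The chains of the IFN-γ receptor changed in opposite directions. Ifngr1 had intensities of 7525, 8423 and 8069.7 in Ezh2 KO cultures (Th2, Th1, unpolarized), against 2412, 4396 and 3084 in the matching wild type cultures. All Ezh2 KO arrays were brighter than all wild type arrays, with the smallest gap in Th1 cultures. The log2 difference was 1.32 ± 0.36 (SD, n = 3 pairs), with a limma adjusted p of 0.0316. Ifngr2, the chain whose loss is known to make Th1 cells unresponsive to IFN-γ, had intensities of 264, 144 and 241 in Ezh2 KO cultures (Th2, Th1, unpolarized), against 721, 345 and 1043 in the matching wild type cultures. All Ezh2 KO arrays were dimmer than all wild type arrays, and on this probe set Th1 cultures were the dimmest in both genotypes. Its log2 difference was -1.61 ± 0.45 (limma adjusted p = 0.0316). A second Ifngr2 probe set read 125, 85.1 and 98.2 in Ezh2 KO and 239.9, 208 and 190.1 in wild type cultures, again without overlap, with a log2 difference of -1.06 ± 0.20, and there the unpolarized array was the dimmest of the wild type. Interferon gamma itself, the ligand, had low signal on all wild type arrays (4.03, 25.8 and 6.07) and read 608, 767 and 266 in Ezh2 KO cultures. Ifng passed the filter through the Ezh2 KO arrays alone, so the filter fixed its direction.

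Of the chains of the IL-6 receptor, the shared chain Il6st fell in Ezh2 KO, and the IL-6-binding chain did not pass the test. Il6st had intensities of 166, 172 and 164 in Ezh2 KO cultures (Th2, Th1, unpolarized), against 399, 351 and 437 in the matching wild type cultures. The Ezh2 KO values were nearly equal in the 3 cultures and all lay under the wild type values. The log2 difference was -1.24 ± 0.19 (SD, n = 3 pairs), with a limma adjusted p of 0.0233. A second Il6st probe set read 103, 97.5 and 105 in Ezh2 KO and 219.9, 199.5 and 280.0 in wild type cultures, and its log2 difference of -1.18 ± 0.20 had the same direction. Il6ra, which encodes the IL-6-binding chain and is known as a gene of naive T cells, read 19.9, 95.7 and 165 in Ezh2 KO cultures (Th2, Th1, unpolarized), against 306, 198 and 568 in the matching wild type cultures. Again the groups did not overlap, and the Ezh2 KO Th2 array alone was under the low-signal limit. The 3 differences were unequal, at -3.94, -1.05 and -1.78 in Th2, Th1 and unpolarized cultures, and their mean of -2.26 ± 1.51 did not pass (limma adjusted p = 0.0942). With eBayes moderation that follows mean expression it did pass (adjusted p = 0.0084), as it did with a floor at the 40th percentile (adjusted p = 0.0448). A second Il6ra probe set read 19.4, 114 and 91.7 in Ezh2 KO and 109, 162 and 155 in wild type cultures, lowest on the same Ezh2 KO Th2 array. Il27ra, which pairs with gp130 to bind IL-27, differed by little: it read 841, 817 and 887 in Ezh2 KO and 698, 661 and 677 in wild type cultures, higher in Ezh2 KO without overlap, and the difference of 0.32 ± 0.06 is one that did not pass (adjusted p = 0.0773).

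Il12rb1 had the largest change among the genes that passed. It read 1784, 1269 and 1116 in Ezh2 KO cultures (Th2, Th1, unpolarized), against 344, 357 and 275 in the matching wild type cultures. Each Ezh2 KO array exceeded every wild type array more than 3-fold, and the Ezh2 KO Th2 array, from a culture without added IL-12, was the brightest. The log2 difference was 2.08 ± 0.28 (SD, n = 3 pairs; limma adjusted p = 0.0199). Its partner Il12rb2, the signalling chain that makes the receptor specific for IL-12 and marks Th1 cells, is outside the group and read 126, 144 and 119 in Ezh2 KO and 19.1, 61.6 and 23.5 in wild type cultures. All wild type values of Il12rb2 were low signal, and its log2 difference was 2.10 ± 0.78 (adjusted p = 0.0405). Il12rb2 passed the filter through the Ezh2 KO arrays alone, so the filter fixed its direction. NK cells also express the IL-12 receptor, and the summed intensity of the 4 NK markers was 10099.9 to 12954 in Ezh2 KO and 236 to 1173 in wild type cultures. Ncr1, which defines NK cells, and Tyrobp, an adaptor that myeloid cells share, were low signal throughout, and the part of such cells in the Il12rb1 result was not tested.

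Among receptors that use the common gamma chain, Il21r rose and the others did not pass. Il21r read 1353, 1155 and 1372 in Ezh2 KO cultures (Th2, Th1, unpolarized), against 827, 854 and 752 in the matching wild type cultures. The groups did not overlap, and values within a genotype were close to each other. The log2 difference was 0.67 ± 0.22 (limma adjusted p = 0.0455), a call lost with median centring (adjusted p = 0.0673). B cells also carry this receptor, and the 5 B cell markers with a named probe set had summed intensities of 4416 to 5848 in Ezh2 KO and 7342 to 8634 in wild type cultures. Nearly all of that sum is Ighm, which fell (-0.79 ± 0.17), while Ms4a1 rose (2.46 ± 1.05), Cd79b gave 0.56 ± 0.22 (adjusted p = 0.0603), and Cd79a and Pax5 were low on all 6 arrays. The part of such cells in the Il21r result was not tested. Il2rb, the chain shared by the IL-2 and IL-15 receptors, read 2412, 2747 and 2734 in Ezh2 KO cultures (Th2, Th1, unpolarized), against 1487, 2633 and 1375 in the matching wild type cultures. The wild type Th1 array was as bright as the Ezh2 KO arrays, and the other wild type arrays were dimmer. The mean difference of 0.58 ± 0.48 therefore had a wide spread and did not pass (adjusted p = 0.144). The second Il2rb probe set showed the same picture, at 565, 776 and 822 in Ezh2 KO and 404, 815 and 359.6 in wild type cultures. Il15ra, which presents IL-15, read 382, 544 and 502 in Ezh2 KO and 379, 475 and 257 in wild type cultures. Its groups overlapped, and its differences of 0.01, 0.20 and 0.97 in Th2, Th1 and unpolarized cultures gave 0.39 ± 0.51 (adjusted p = 0.287). Il4ra, the chain through which IL-4 drives the Th2 fate, read 2569, 2073 and 2424 in Ezh2 KO and 2863, 1676 and 2349.9 in wild type cultures, with overlapping groups and a difference of 0.07 ± 0.23 (adjusted p = 0.73). Il2rg, the common gamma chain, was not analysed here, and Il9r, the IL-9 receptor, was at the floor on all 6 arrays. Of the 2 gamma chain partners left out by definition, Il7r was higher (0.98 ± 0.18, adjusted p = 0.0273) and Il2ra did not pass (-0.14 ± 0.20, adjusted p = 0.43).

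**Figure D3:**
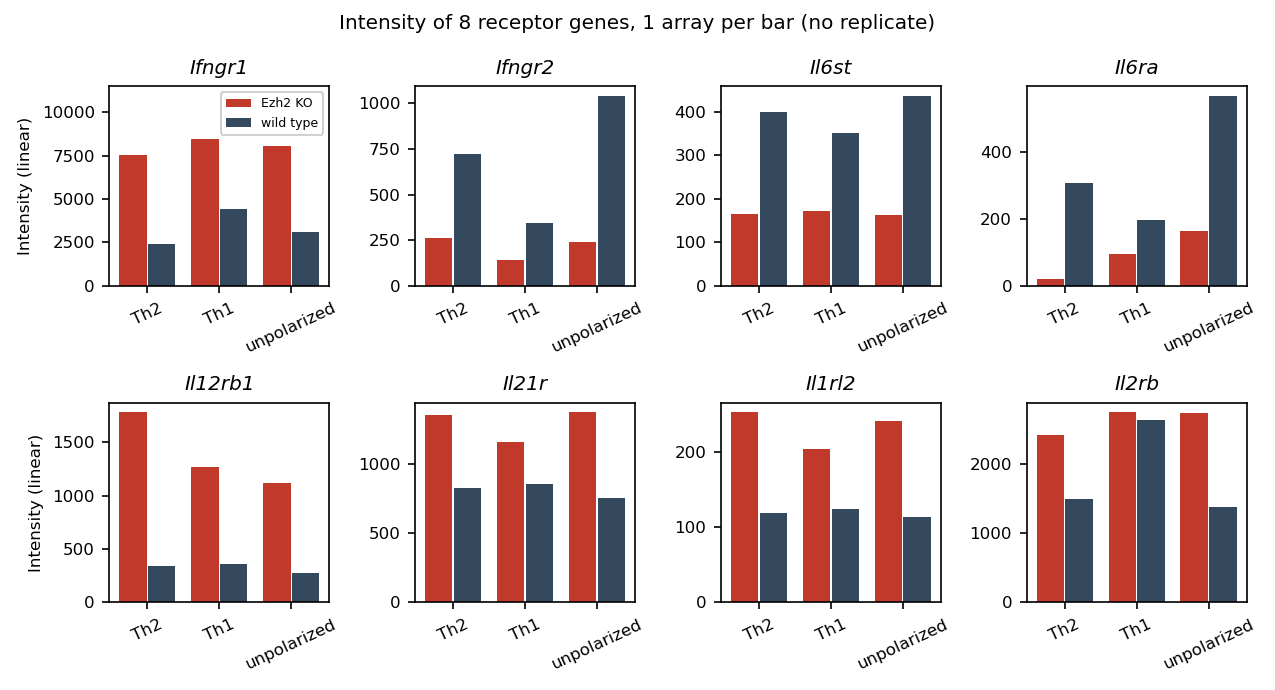
Intensity on a linear scale from 0 (y axes, each with its own range) of 8 receptor genes, 1 array per bar, with no replicate. Red bars are Ezh2 KO and dark bars wild type, by culture. Ezh2 KO bars are taller for Ifngr1, Il12rb1, Il21r and Il1rl2 and shorter for Ifngr2, Il6st and Il6ra in each culture. For Il2rb the bars of the Th1 cultures nearly match, at 2747 in Ezh2 KO and 2633 in wild type.

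None of the other class II receptor genes passed the test. The type I interferon receptor chains Ifnar1 (942, 924 and 1018 in Ezh2 KO and 1087, 918 and 1187 in wild type cultures) and Ifnar2 (1691, 1971 and 2035 in Ezh2 KO and 1902, 2196 and 1997 in wild type cultures) overlapped between the genotypes. Their differences were -0.14 ± 0.13 (adjusted p = 0.343) and -0.10 ± 0.11 (adjusted p = 0.466). The 2 further Ifnar2 probe sets gave lower values, at -0.59 ± 0.37 and -0.43 ± 0.11. Il10rb, the accessory chain of the IL-10 and IL-22 receptors, was steady at 0.10 ± 0.15 around intensities of 2049, 2457 and 2424 in Ezh2 KO and 2001, 2449 and 2002 in wild type cultures. Il10ra, the IL-10-binding chain, read 574, 488 and 519.8 in Ezh2 KO cultures (Th2, Th1, unpolarized), against 399.5, 426 and 317 in the matching wild type cultures. The groups did not overlap, and the difference of 0.48 ± 0.26 did not pass (limma adjusted p = 0.0931). A dimmer Il10ra probe set differed in the opposite direction, at 30.5, 7.77 and 13.3 in Ezh2 KO and 111, 62.3 and 90.2 in wild type cultures (-2.36 ± 0.46), so the direction of Il10ra depends on the probe set. Averaging all its probe sets gave -0.63 (adjusted p = 0.0417). Il20rb, a chain of the IL-20 and IL-24 receptors, stayed near the low-signal limit (81.1, 106 and 64.9 in Ezh2 KO and 81.4, 55.6 and 91.2 in wild type cultures) and gave 0.15 ± 0.73 (adjusted p = 0.761).

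In the IL-1 receptor family, Il1rl2 rose. Il1rl2, whose ligands are the IL-36 cytokines, read 253, 203 and 241 in Ezh2 KO cultures (Th2, Th1, unpolarized), against 118, 124 and 114 in the matching wild type cultures. The wild type values lay close together, and all Ezh2 KO values lay above them. The log2 difference was 0.96 ± 0.22 (limma adjusted p = 0.0308), with 0.33 (adjusted p = 0.192) when a second, dim probe set was averaged in. The name of the brighter one marks it as able to match more than 1 transcript, so its reading may hold signal from elsewhere. Il1r2, the decoy receptor that binds IL-1 without signalling, read 572, 85.2 and 113 in Ezh2 KO cultures (Th2, Th1, unpolarized), against 34.7, 54.0 and 49.0 in the matching wild type cultures. All wild type values were low signal, and the Ezh2 KO Th2 array stood far above the other Ezh2 KO arrays. The difference of 1.97 ± 1.82 did not pass (adjusted p = 0.159). On the same Ezh2 KO Th2 array Cpa3, a mast cell protease, was also bright, at 1061 against 25.5 in wild type Th2 cells. The 5 mast cell and basophil markers summed to 306 to 1296 in Ezh2 KO and 185 to 250.2 in wild type cultures. Cpa3 passed the filter through the Ezh2 KO arrays alone, so the filter fixed its direction. It did not pass the test (3.23 ± 2.06, limma adjusted p = 0.0877). Kit, the middle of the 3 tested markers at 1.16, did not pass either. Fcer1a and Mcpt8 were low on all 6 arrays. Gata2, with signal in wild type alone, was lower in Ezh2 KO (-1.85 ± 0.75). The part of such cells in the Il1r2 value was not tested. Il1rap, the shared signalling partner of the family, read 130.1, 163 and 182 in Ezh2 KO and 134, 222 and 233 in wild type cultures, a difference of -0.28 ± 0.21 (adjusted p = 0.174).

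No gene of the IL-17 receptor family passed. Il17ra, the chain shared by the receptors for IL-17A and IL-25, read 1746, 1603 and 1987 in Ezh2 KO cultures (Th2, Th1, unpolarized), against 2215, 2341 and 2555 in the matching wild type cultures. The groups did not overlap, and the difference of -0.42 ± 0.11 narrowly missed the threshold (limma adjusted p = 0.0603). A second probe set gave -0.39 ± 0.11. Il17rb, the IL-25-binding chain, read 51.4, 80.6 and 32.6 in Ezh2 KO and 65.4, 17.4 and 48.9 in wild type cultures, and Il17re, the IL-17C receptor, read 183, 97.6 and 182 in Ezh2 KO and 135, 182 and 197 in wild type cultures. Both had overlapping groups, with differences of 0.43 ± 1.55 and -0.19 ± 0.67 (adjusted p = 0.669 and 0.662). Il17rd, a regulator of fibroblast growth factor signalling as well, read 60.1, 43.8 and 31.0 in Ezh2 KO and 39.0, 58.1 and 64.5 in wild type cultures (-0.28 ± 0.85, adjusted p = 0.612), while a second probe set of that gene gave 1.58 ± 0.35. Il3ra, the IL-3-binding chain, read 204, 97.2 and 71.9 in Ezh2 KO cultures (Th2, Th1, unpolarized), against 207, 187 and 148 in the matching wild type cultures. The Th2 arrays were alike and the other Ezh2 KO arrays were dimmer than their wild type partners, for a difference of -0.67 ± 0.56 (adjusted p = 0.149).

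The remaining 13 genes were not tested, since they were low signal throughout, with intensities of at most 62.0. They were Il1r1, the signalling IL-1 receptor, its antagonist Il1rn and the brain-expressed relatives Il1rapl1 and Il1rapl2, Il13ra1 and Il13ra2 of the IL-13 receptors, Il5ra, Il9r, Il17rc, Il20ra, Il22ra1, Il22ra2 and Il31ra. The brightest of them was Il13ra2, which read 62.0, 55.6 and 44.3 in Ezh2 KO and 34.9, 41.4 and 12.3 in wild type cultures. No order is read from values this low. Absence of signal is not absence of expression here, because the arrays give no depth from which a limit could be set.

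Receptor genes that lie next to each other did not always move together. In the RefSeq gene order of GRCm38.p6, 17 of the 36 genes lie in 8 runs of adjacent receptor genes, counting the genes left out by definition. The run on chromosome 1 holds Il1r2, Il1r1, Il1rl2, Il1rl1, Il18r1 and Il18rap. There Il1rl2, Il18r1 and Il18rap rose in Ezh2 KO, at 0.96 ± 0.22, 1.60 ± 0.08 and 0.95 ± 0.04 (adjusted p = 0.0308, 0.0174 and 0.0217). Il1r2 had signal in Ezh2 KO alone, so the filter fixed its direction, and it did not pass. The run on chromosome 16 holds Ifnar2, Il10rb, Ifnar1 and Ifngr2, and there Ifngr2 fell while the other 3 gave -0.10 ± 0.11, 0.10 ± 0.15 and -0.14 ± 0.13. On chromosome 7 Il21r rose next to Il4ra, which did not pass. On chromosome 2 neither Il15ra nor its neighbour Il2ra passed. The differences between neighbours were not tested.

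**Figure D4:**
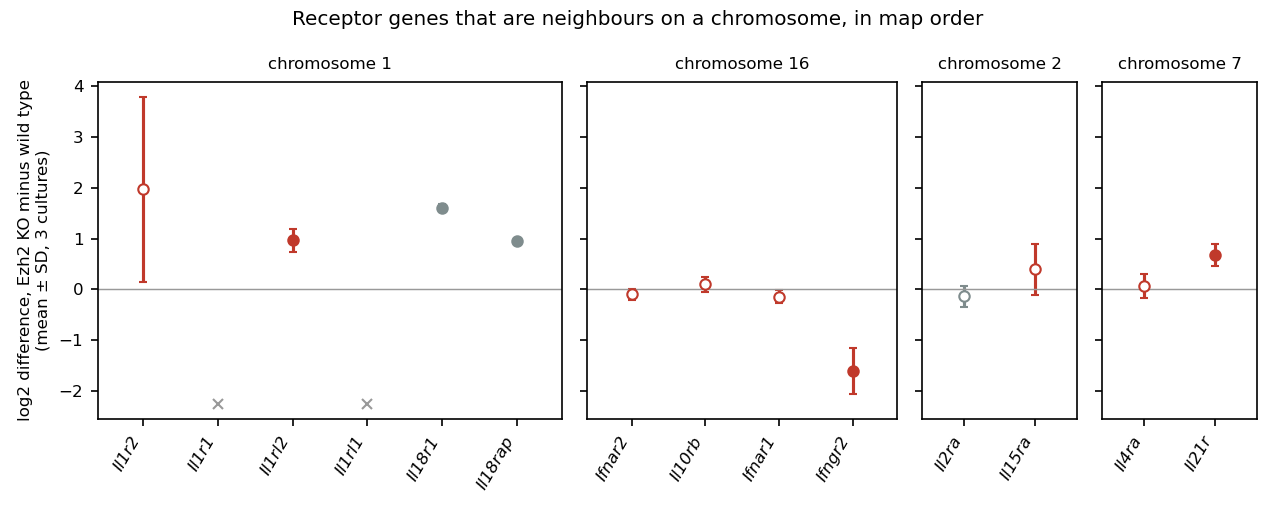
Log2 difference of Ezh2 KO minus wild type (y axis, mean ± SD over 3 cultures) for receptor genes that are neighbours, in map order with distances not to scale. Red points belong to the group and grey points were left out of it by definition, filled points have an adjusted p under 0.05, and crosses at the bottom mark genes not tested. On chromosome 1 Il1rl2, Il18r1 and Il18rap lie above 0, and on chromosome 16 Ifngr2 alone lies far below it, at -1.61.

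The second question was how the polarizing cytokines changed these receptors. With genotype as a block and 2 arrays per culture, 0 receptor genes passed in Th2 against Th1, Th2 against unpolarized or Th1 against unpolarized cultures (limma, Benjamini-Hochberg). For each of these contrasts 0% of all tested genes passed in either direction with limma. With moderation that follows mean expression, 13 genes were higher and 3 lower in Th2 than in Th1 cultures and 5 were higher in Th2 than in unpolarized cultures, 0 of them receptor genes. At an unadjusted p under 0.05 the receptor genes gave 3, 3 and 1 calls. The contrasts against unpolarized cultures share the unpolarized arrays. Ifngr2 and Il4ra were the unadjusted calls that were higher and Il1rap the one that was lower in Th2 than in Th1 cultures, where 4.03% and 3.54% of all tested genes were called. In Th2 against unpolarized cultures Il12rb1 and Il3ra were higher and Il1rap lower (3.4% and 3.29% of all tested genes). In Th1 against unpolarized cultures 0 were higher and Ifngr2 was lower (2.71% and 2.77%).

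Culture differences within a genotype compare 1 array with 1 array and have no test. Ifngr2 was lower in Th1 than in unpolarized cells by log2 0.74 in Ezh2 KO and 1.60 in wild type. On its second probe set, given above, the wild type Th1 value exceeded the unpolarized one, so this direction rests on the probe set used, and averaging both took the fitted difference to -0.60, against -1.17. On the probe set used, Il4ra was ordered Th2, unpolarized, Th1 from high to low in both genotypes, with Th2 over Th1 by 0.31 in Ezh2 KO and 0.77 in wild type. A dimmer Il4ra probe set did not keep that order, at 257, 265 and 325 in Ezh2 KO and 311, 310.2 and 337 in wild type cultures, and with all probe sets averaged the fitted Th2 minus Th1 difference was 0.25, against 0.54. The order of the 3 cultures was the same in both genotypes for 6 of the 23 genes, each on the probe set used (Il4ra, Il3ra, Il1rap, Ifngr1, Ifnar1 and Il10rb). The share of all tested genes with the same order was not counted, so no reproducible order is read from these 6. Il2rb differed between Th1 and unpolarized cells by 0.01 in Ezh2 KO and by 0.94 in wild type, higher in Th1. For Il15ra the values were 0.12 in Ezh2 KO and 0.89 in wild type, but its second probe set read 133, 267 and 216 in Ezh2 KO and 122, 149 and 128 in wild type cultures, with similar steps from unpolarized to Th1 in both genotypes.

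The widest culture differences, those of Il6ra and Il1r2, involved the Ezh2 KO Th2 array. Against the Ezh2 KO unpolarized array, Il1r2 and Il3ra were 2-fold or more higher there (2.34 and 1.51, where 4.28% of all tested genes were 2-fold higher). Il6ra was lower, at -3.05, where 2.19% of all genes were 2-fold lower. The matching wild type values were -0.50 for Il1r2, 0.48 for Il3ra and -0.89 for Il6ra, and 0 receptor genes reached 2-fold there (2.63% of all genes higher and 3.48% lower). In Th1 against unpolarized cells, Il17rb was 2-fold higher and 0 receptor genes were 2-fold lower in Ezh2 KO (3.26% and 1.83% of all genes), and Ifngr2, Il6ra and Il17rb were 2-fold lower in wild type (3.04% of all genes). The second probe sets of Ifngr2 and Il6ra did not show this step in wild type. In Th2 against Th1 cells, Il1r2 and Il3ra were 2-fold higher and Il6ra 2-fold lower in Ezh2 KO (3.38% and 2.68% of all genes), and Ifngr2 and Il17rb were 2-fold higher and 0 lower in wild type (2.85% and 3.78%). Whether these culture differences depend on genotype was not tested, since each cell of the design held 1 array.

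**Figure D5:**
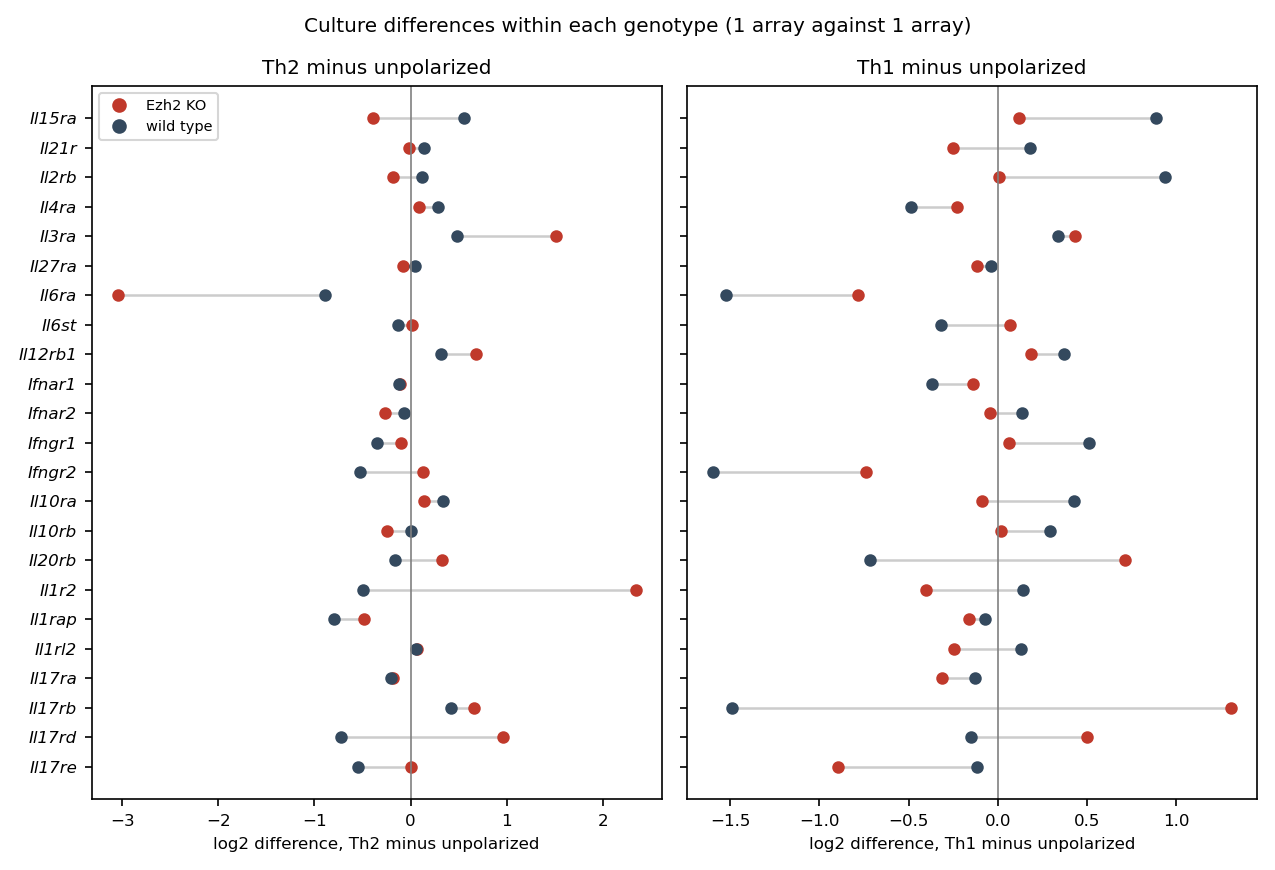
Log2 difference between cultures (x axes) for the 23 tested genes (rows), Th2 minus unpolarized on the left and Th1 minus unpolarized on the right. Each point is 1 array against 1 array, red in Ezh2 KO and dark in wild type, joined by a line. Il1r2 (2.34) and Il6ra (-3.05) stand out in Ezh2 KO Th2 cells, and on the probe sets used Ifngr2 and Il6ra lie left of 0 in Th1 cells of both genotypes.

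Genes around the receptors were read from the same fit. Of 40 listed ligand genes 17 were tested. Of these, 6 (Ifng, Il10, Il11, Il13, Il5 and Il6) passed the filter through Ezh2 KO arrays alone and 2 (Ifnb1 and Il20) through wild type arrays alone, so their direction was tied to the filter. Of the 9 with signal in both genotypes 5 rose (Csf2, Il18, Il24, Il4 and Osm) and 0 fell, where 8.37% of all tested genes were called higher and 8.05% lower. Il2, the ligand of Il2rb, was low on all arrays and untested. The called ligands with the largest differences were Ifng (5.07 ± 0.61), the ligand of Ifngr1 and Ifngr2, Il10 (4.44 ± 1.73), the ligand of Il10ra, Csf2 and Il24. Of these, Ifng and Il10 are among the genes whose direction was tied to the filter. For Ifng, 2 wild type values were raised to the floor, so the size of its difference depends on the floor. Il24, a ligand of Il20rb, read 2611, 405 and 378 in Ezh2 KO and 183, 55.3 and 82.2 in wild type cultures (2.97 ± 0.82, adjusted p = 0.0298). Csf2, whose receptor shares its beta chain with the IL-3 and IL-5 receptors, gave 3.57 ± 0.07. Of 24 JAK, STAT and SOCS genes 23 were tested: Socs1 and Socs5, which restrain cytokine signalling, rose by 0.66 ± 0.20 and 0.99 ± 0.31, Stat5a, which carries IL-2 signals, fell by 0.63 ± 0.15, and the list median was 0.05. Of 11 tested adaptor genes of the IL-1 and IL-17 receptors 2 rose, the kinase gene Map3k7 by 0.75 ± 0.11 and its partner Tab2 by 0.72 ± 0.03, and 0 fell. Of 11 tested cytokine receptor genes outside the group, 4 rose and 0 fell. The filter fixed the direction of 2 of the 11 (Csf2rb and Csf3r), which had signal in Ezh2 KO alone. Of the 9 with signal in both genotypes 3 rose and 0 fell. These 3 were the TGF-β receptor chains Tgfbr2 (1.11 ± 0.16) and Tgfbr1 (0.83 ± 0.16) and the IL-1 family regulator Sigirr (0.55 ± 0.14). The other gene that rose, Csf2rb (1.93 ± 0.17), was low signal on all but 1 array.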

How the data were processed

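RNA of 6 CD4 T cell cultures was labelled with the GeneChip 3' IVT Express Kit, per the labels' protocols. The deposited values are linear intensities per probe set. Affymetrix Expression Console, with no version, is the tool listed, per the submitters' processing notes, and how it summarized probes is not stated there. Every array had the same 2% trimmed mean.

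Of 45101 probe sets, 34945 carried 1 symbol in the platform annotation, updated through the RefSeq table, which gave 18193 genes. The probe set with the highest mean log2 intensity stood for a gene. For Il13ra1, Il17rc and Il1r1, none with signal, that choice would differ after the floor. Lower values were set to the 20th percentile as a floor (intensity 11.3, log2 3.50) and taken to log2, and none of the 23 tested receptor genes had an array at the floor. Genes whose maximum stayed under the median of all values were not tested. The additive model of genotype and culture (limma 3.58.1, R 4.3.3) left 2 residual degrees of freedom, with a prior of 1.66. It was checked on data simulated with the same genotype change in every culture. That check does not cover changes that differ by culture. A difference is the mean over 3 pairs of arrays, with its SD. Differences of 1 array against 1 array have no test. Alternatives were other scalings, filters, floors and probe set rules, a trend in eBayes, no block, and each culture left out.

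The receptor genes and the lists were chosen with earlier results of these data known. Values of every array are given for genes past the threshold or with a mean difference of at least 1 on the log2 scale between genotypes or cultures, and for the chains of IL-2, IL-4 and IL-12 receptors. Values of other genes were added after they were seen.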

Additional observations from a re-analysis of the deposited data

Results flagged for a closer look

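Il17rb, the IL-25-binding chain, had opposite differences in the genotypes between Th1 and unpolarized cultures. The log2 difference of Th1 minus unpolarized was 1.31 in Ezh2 KO and -1.49 in wild type. The difference was not tested, since each value rests on 1 array against 1 array, and 4 of the 6 readings were under the low-signal limit.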

How the results depend on the processing

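The main counts of 4 higher and 2 lower receptor genes in Ezh2 KO kept within 1.5 times under median centring, quantile normalization, no floor, a higher floor, the higher filter, the mean over all probe sets and no block, although the genes behind them changed. Il12rb1 was called in 8 of 12 alternatives, Ifngr1 in 8 of 12, Ifngr2 in 7 of 12, Il21r in 7 of 12, Il6st in 7 of 11 and Il1rl2 in 6 of 11, where it was tested. The signs of these 6 genes did not change in any of them. With a trend in eBayes 8 were higher and 4 lower. Without the filter on low values the counts were 0 and 0, with 6 and 4 receptor genes at an unadjusted p under 0.05, and with any 1 culture left out they were 0 to 0 in both directions, with 4 to 6 higher and 3 to 7 lower at an unadjusted p under 0.05. Over all genes, 968 higher and 931 lower became 866 and 413 with median centring, 1284 and 1766 with the filter at the 60th percentile, 1271 and 1573 with no block, 1777 and 2204 with the trend, and 0 and 0 without the filter or with any culture left out. The sign changed, when all probe sets were averaged, for Il10ra (-0.63), Il17rd (0.65), Il17re (0.49) and Il4ra (-0.068). It also changed without the Th1 arrays for 4 genes: leaving out 1 culture in turn, Il17rb ranged between -0.47 and 0.93, Il17re between -0.51 and 0.16, Il20rb between -0.25 and 0.47 and Il4ra between -0.056 and 0.18. The cause was not tested, and only Il10ra passed the threshold with the changed sign. In the culture contrasts 0 receptor genes passed under any alternative run. The main fit already pairs the arrays by culture, and the labels give no replicate numbers for another pairing. Signal over background limits the dim genes.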

Other observations

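Besides the probe sets used above, 18 others of the receptor genes reached the low-signal limit on at least 1 array. For 11 of these the mean genotype difference had the sign of the probe set used. The exceptions were those of Il10ra, Il10rb, Il17rd, Il17re, 1 of Il1rap and both of Il4ra. The Il17rd exception was not small: its second probe set read 69.8, 71.6 and 43.2 in Ezh2 KO and 29.9, 23.9 and 10.5 in wild type cultures, higher in Ezh2 KO without overlap and with all wild type readings low, whereas the probe set used gave -0.28 ± 0.85. For Ifnar2, the other 2 probe sets read 177, 339 and 346 in Ezh2 KO and 352, 409 and 488 in wild type cultures and 799, 1225 and 1092 in Ezh2 KO and 1111, 1519 and 1551 in wild type cultures.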
